A study of Mus musculus with 2 samples.

Results

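The 10 genes described here build microtubules or set how long these last: the alpha tubulin gene Tuba1a, the beta tubulin genes Tubb4a, Tubb2b, Tubb3 and Tubb5, the microtubule-binding proteins Tppp, Mapt (tau) and Map1b, and the stathmins Stmn1 and Stmn4. They are 10 of the 31053 genes in the tables, listed by name with earlier results of these data known, and all 10 were found. Counts of listed genes set beside shares of all genes are therefore descriptions. Their expression was followed across the oligodendrocyte precursor cells (OPCs), newly formed oligodendrocytes (NFOs) and oligodendrocytes of the mouse optic nerve, with and without optic nerve crush (ONC).

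The scRNA-seq experiment compared 1 library from 5 injured optic nerves, taken 2 weeks after ONC at 8 weeks of age, with 1 library from 5 uninjured nerves. All mice were wildtype, of the strain 129S1/SvlmJ and 10 weeks old, and males and females were pooled. The labels give an age of 56 days and the crush treatment for both samples, so the uninjured library was assigned by its title. The authors typed each barcode from marker genes, and the uninjured library holds 58 OPC, 44 NFO and 857 oligodendrocyte barcodes and the injured library 17, 100 and 293. Other cell types were not analysed here. No barcode sequence was found in both libraries (0 shared). Levels are given as CPM, the UMIs (counted RNA molecules) of a gene per 1000000 UMIs summed over the barcodes of a class, where a class is 1 cell type in 1 library. Values in parentheses after a level, a share or a ratio are its 95% interval (exact Poisson for CPM, exact binomial for shares, exact conditional for ratios) and express counting error alone. Each condition has 1 library, so no difference could be checked against replicates and no p-value was computed.

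Microtubules are hollow filaments of alpha and beta tubulin pairs that grow and shrink at their ends. In an oligodendrocyte they run through the processes that reach out to axons, and myelin protein mRNAs and membrane travel along them to the myelin sheath. The vertebrate tubulin isotypes share most of their sequence and differ mainly in an acidic tail at the C-terminus, where many microtubule-binding proteins and tail-modifying enzymes act.

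The cell type labels were set beside marker lists. These lists hold genes by which the authors typed the cells (Pdgfra, Fyn, Mag and Mbp), so the sums describe the classes and are no independent check. A list of 10 OPC markers summed to 12461 CPM in uninjured and 11880 CPM in injured OPCs, against 131 and 110 CPM in oligodendrocytes. The 14 oligodendrocyte markers summed to 84786 and 80427 CPM in oligodendrocytes of the uninjured and injured library, and to 5492 and 1318 CPM in OPCs. The 14 NFO markers reached 8988 and 12099 CPM in NFOs, and 1341 and 1223 CPM in oligodendrocytes. The types were not sharply apart, since NFO markers also had 4407 and 3112 CPM in OPCs, and NFOs held 14724 CPM of oligodendrocyte markers in the uninjured and 19858 CPM in the injured library, and 5322 and 3879 CPM of OPC markers. The part of these differences between the NFO classes in the members' ratios was not tested. The libraries differed in depth and in the summed markers of other cell types. The 84 oligodendrocytes with at least 8000 UMIs held 86.9% of all UMIs of the injured oligodendrocytes, against 58.7% in the 203 such barcodes of the uninjured library. Barcodes with under 0.5% of their UMIs from Malat1, a nuclear RNA, made up 133 of 293 injured and 48 of 857 uninjured oligodendrocytes, and 77 of 100 injured and 28 of 44 uninjured NFOs. The 12 immune cell markers summed to 631 CPM in injured and 21.2 CPM in uninjured NFOs, and to 282 and 27.5 CPM in oligodendrocytes. Astrocyte markers, 8 in the list, summed to 1714 CPM in injured and 776 CPM in uninjured NFOs, and to 329 and 493 CPM in oligodendrocytes. The astrocyte list also had 893 CPM in uninjured and 740 CPM in injured OPCs, and whether its RNA came from astrocytes was not tested. The part of the immune and astrocyte markers in the differences between libraries was not tested either. Values within the barcodes with at least 0.5% Malat1 UMIs are given beside the results they touch.

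The coding bases of the beta tubulin tails are shown because the isotype proteins are told apart mainly by this stretch. Each sequence is the last 75 coding bases, stop codon included, of exon 4 of 4 of the gene's transcript in GENCODE vM21 (GRCm38), written 5′ to 3′ along the gene, and capitals mark the glutamate codons in frame (GAA or GAG).
Tubb4a: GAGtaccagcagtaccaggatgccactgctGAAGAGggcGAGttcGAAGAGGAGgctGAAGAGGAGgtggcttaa
Tubb5: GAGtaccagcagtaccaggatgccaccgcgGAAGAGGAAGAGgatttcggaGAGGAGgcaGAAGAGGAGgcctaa
Tubb2b: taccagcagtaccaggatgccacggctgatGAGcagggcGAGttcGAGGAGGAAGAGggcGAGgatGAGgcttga
Tubb3: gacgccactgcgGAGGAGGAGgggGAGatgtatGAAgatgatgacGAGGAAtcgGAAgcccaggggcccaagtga
These tails lie at chr17:57080690-57080764 for Tubb4a, chr17:35834982-35835056 for Tubb5 and chr13:34127471-34127545 for Tubb2b, all on the minus strand, and at chr8:123421608-123421682 on the plus strand for Tubb3. Of the 24 codons before the stop, 10 code for glutamate in Tubb4a and Tubb5, and 8 in Tubb2b and Tubb3. The tail of Tubb4a was 83.3% identical to that of Tubb5, 79.5% to that of Tubb2b and 49.4% to that of Tubb3. Over the whole coding sequence the identities were 83.9%, 84.5% and 82.4%. The tails were cut at a fixed length from the stop, and the coding sequences have 444 codons in Tubb4a and Tubb5, 445 in Tubb2b and 450 in Tubb3. The stretches thus start at different codons. The glutamate counts and the tail identities, above all that to Tubb3, therefore also reflect where each stretch starts. Near-identical copies of members outside the group are Tuba1b and Tuba1c, with 98.3% and 97.1% coding identity to Tuba1a, and Tubb2a, with 96.5% coding identity to Tubb2b. The last 300 transcript bases of these pairs were 55.8%, 49.2% and 47.2% identical, and the kit reads transcripts near their 3′ end, but reads within the coding sequence could be lost or shared between the copies. In the annotation Tuba1a, Tubb3, Stmn1 and Map1b overlap another gene model on the same strand, so their counts may miss reads that both models could claim, and Tppp and Mapt overlap models on the opposite strand.

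**Figure D1:**
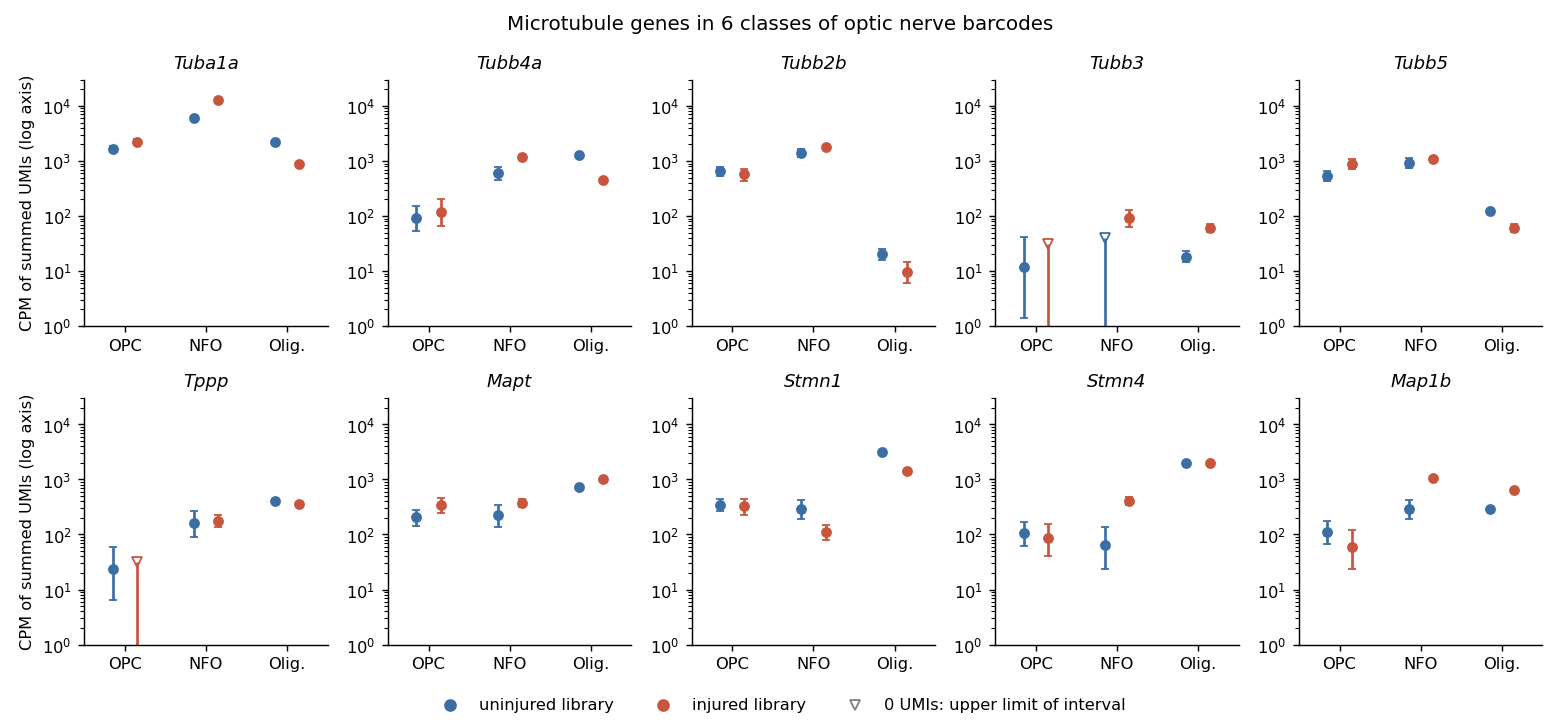
CPM of summed UMIs (log axis) of the 10 genes in OPCs, NFOs and oligodendrocytes of the uninjured (blue) and injured (red) library, with exact 95% Poisson intervals. Open triangles stand for classes with 0 UMIs, at the upper limit of the interval. Tuba1a was highest in NFOs, Tubb2b and Tubb5 lowest in oligodendrocytes, and Tppp, Mapt, Stmn1 and Stmn4 highest in oligodendrocytes.

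Tuba1a, the gene of a main alpha tubulin of the developing nervous system, at chr15:98949837-98953703 on the minus strand of GRCm38, was highest in NFOs, and its difference between the libraries ran in opposite directions in NFOs and oligodendrocytes. OPCs had 1681 CPM (1492 to 1887) in the uninjured and 2236 CPM (1974 to 2524) in the injured library. NFOs had 5928 CPM (5446 to 6441) in the uninjured and 12733 CPM (12362.5 to 13111) in the injured library. Oligodendrocytes had 2238 CPM (2193 to 2284) in the uninjured and 864 CPM (827 to 903) in the injured library. The injured NFOs stood above all other classes, the injured oligodendrocytes below all others, and only the intervals of uninjured oligodendrocytes and injured OPCs overlapped. Tuba1a was therefore 3.53 times (3.05 to 4.08) as high in NFOs as in OPCs of the uninjured library, and 14.7 times (14.0 to 15.5) as high in NFOs as in oligodendrocytes of the injured library. In the uninjured library NFOs held 2.65 times (2.43 to 2.89) the level of oligodendrocytes.

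The same order was seen barcode by barcode. The median normalized expression (NE, the natural log of 1 plus UMIs per 10000) of Tuba1a was 3.64 in uninjured and 4.39 in injured NFOs, against 2.59 and 1.77 in oligodendrocytes and 2.36 and 2.45 in OPCs. A Tuba1a UMI was found in 96 of 100 injured NFOs (96.0%, 90.1 to 98.9) and in 187 of 293 injured oligodendrocytes (63.8%, 58.0 to 69.3), in barcodes with similar median totals of 1258.5 and 1268 UMIs. Drawn down to 500 UMIs per barcode, the shares came to 84.0% and 28.7%. The levels of NFOs were uneven, and 1 injured NFO barcode held 559 Tuba1a UMIs, 12.5% of those in its class.

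**Figure D2:**
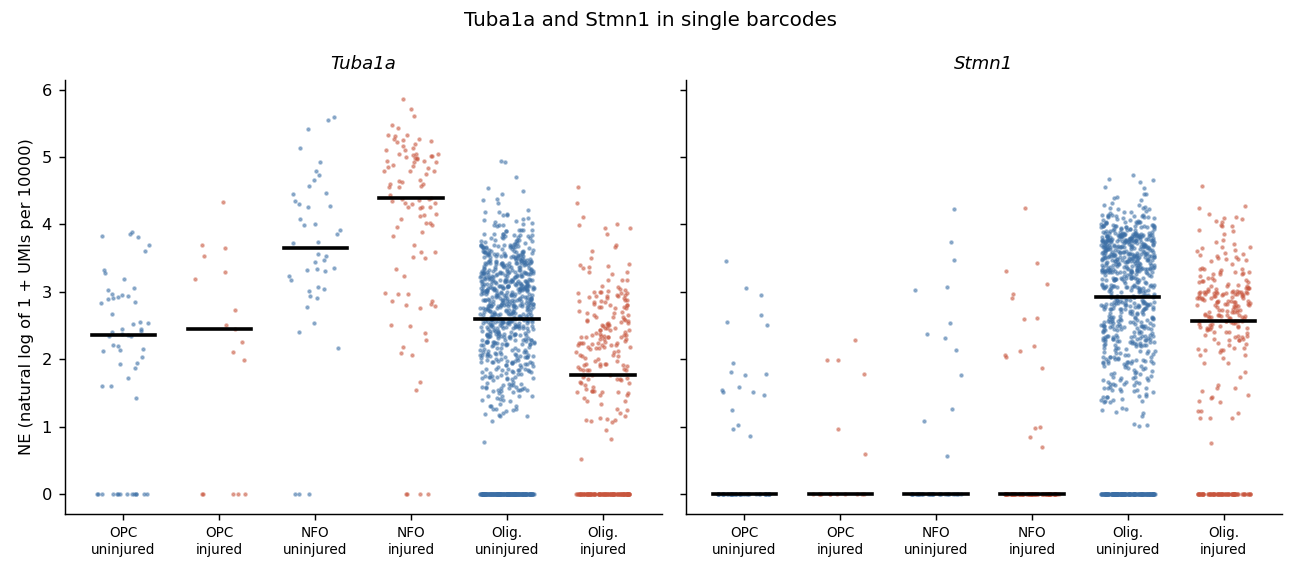
NE of Tuba1a (left) and Stmn1 (right) in every barcode of the 6 classes, blue for the uninjured and red for the injured library, with black bars at the medians. Tuba1a medians were highest in NFOs, and Stmn1 medians were 0 in OPCs and NFOs and 2.93 and 2.57 in uninjured and injured oligodendrocytes.

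Of the beta tubulins, Tubb2b and Tubb5 were OPC and NFO genes and Tubb4a belonged to NFOs and oligodendrocytes. Tubb4a (chr17:57080066-57087782), the isotype whose human counterpart is mutated in a hypomyelinating leukodystrophy, had 93.4 CPM (53.4 to 152) in uninjured and 119 CPM (65.1 to 200) in injured OPCs. It had 595 CPM (449 to 773) in uninjured and 1191 CPM (1080 to 1311) in injured NFOs. In oligodendrocytes it had 1266 CPM (1232 to 1301) in the uninjured and 458 CPM (431 to 486) in the injured library. Uninjured oligodendrocytes and injured NFOs thus held the highest levels, with overlapping intervals, and OPCs the lowest. Tubb4a was 13.6 times (8.34 to 23.7) as high in oligodendrocytes as in OPCs of the uninjured library, and 3.85 times (2.28 to 7.06) in the injured library. Between NFOs and oligodendrocytes the order differed by library, with a ratio of 0.470 (0.354 to 0.611) in the uninjured and 2.60 (2.32 to 2.92) in the injured library.

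Tubb2b (chr13:34126748-34130466), an isotype of immature neural cells, was low in oligodendrocytes and found in few of their barcodes. It had 648 CPM (533 to 780) in uninjured and 570 CPM (442 to 724) in injured OPCs, and 1392 CPM (1164 to 1651) in uninjured and 1759 CPM (1623 to 1903) in injured NFOs. In oligodendrocytes it had 20.003 CPM (15.9 to 24.8) in the uninjured and 9.56 CPM (5.99 to 14.5) in the injured library, from UMIs in 19 of 857 and 9 of 293 barcodes. NFO levels were 69.6 times (52.4 to 92.7) those of oligodendrocytes in the uninjured library and 184 times (121 to 296) in the injured library. No cell type that should lack the gene was at hand to read the level of free RNA, so the few UMIs in oligodendrocytes are not read as expression.

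Tubb5 (chr17:35833921-35838306), an isotype found in many dividing and non-dividing cells, had 537 CPM (433 to 659) in uninjured and 884 CPM (723 to 1072) in injured OPCs. NFOs had 924 CPM (740 to 1140) in the uninjured and 1091 CPM (985 to 1206) in the injured library, and oligodendrocytes 121 CPM (110 to 132) and 59.9 CPM (50.4 to 70.8). The NFO levels and the injured OPC level did not differ beyond their intervals, and both oligodendrocyte classes lay below all others. In the uninjured library NFOs held 7.65 times (6.02 to 9.63) the level of oligodendrocytes, and in the injured library 18.2 times (14.95 to 22.3).

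Tubb3 (chr8:123411424-123422015), the isotype used as a neuron marker, was the rarest member. It was counted at 2 UMIs in uninjured and 0 UMIs in injured OPCs, and at 0 UMIs in uninjured and 32 UMIs in injured NFOs (90.9 CPM, 62.2 to 128). A count of 0 at the depth of uninjured NFOs allows 31.9 CPM, the level of 3 UMIs. Oligodendrocytes had 18.3 CPM (14.4 to 22.9) in the uninjured and 59.9 CPM (50.4 to 70.8) in the injured library. Of the 32 UMIs in injured NFOs, 19 came from 1 barcode, which is 59.4%.

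These levels add up to different isotype mixes. Among the UMIs of the 7 beta tubulin genes Tubb4a, Tubb2b, Tubb5, Tubb4b, Tubb2a, Tubb3 and Tubb6, Tubb4a took 4.94% (2.85 to 7.90) in uninjured OPCs, 15.7% (12.1 to 19.9) in uninjured NFOs and 79.0% (78.0 to 80.0) in uninjured oligodendrocytes. Tubb2b went the other way, from 34.3% (29.1 to 39.7) in uninjured OPCs and 36.8% (31.8 to 42.0) in uninjured NFOs to 1.25% (0.996 to 1.55) in uninjured oligodendrocytes. Tubb5 took 28.4%, 24.4% and 7.54% in the same order. In the injured library the share of Tubb4a was 23.1% (21.2 to 25.1) in NFOs and 65.5% (63.2 to 67.9) in oligodendrocytes, where Tubb3 took 8.58% (7.26 to 10.1) against 1.143% (0.902 to 1.43) in uninjured oligodendrocytes. The beta tubulin genes together had 5156 CPM in injured and 3782 CPM in uninjured NFOs, and 698 and 1602 CPM in oligodendrocytes. Among alpha tubulins, Tuba1a took 90.7% (88.2 to 92.9) of the UMIs of 5 genes in uninjured and 97.6% (97.1 to 98.0) in injured NFOs, and 92.2% and 90.2% in uninjured and injured oligodendrocytes. Shares of UMIs compare genes of unlike length and 3′ ends, so they describe how the mix differed between classes and not amounts of protein.

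**Figure D3:**
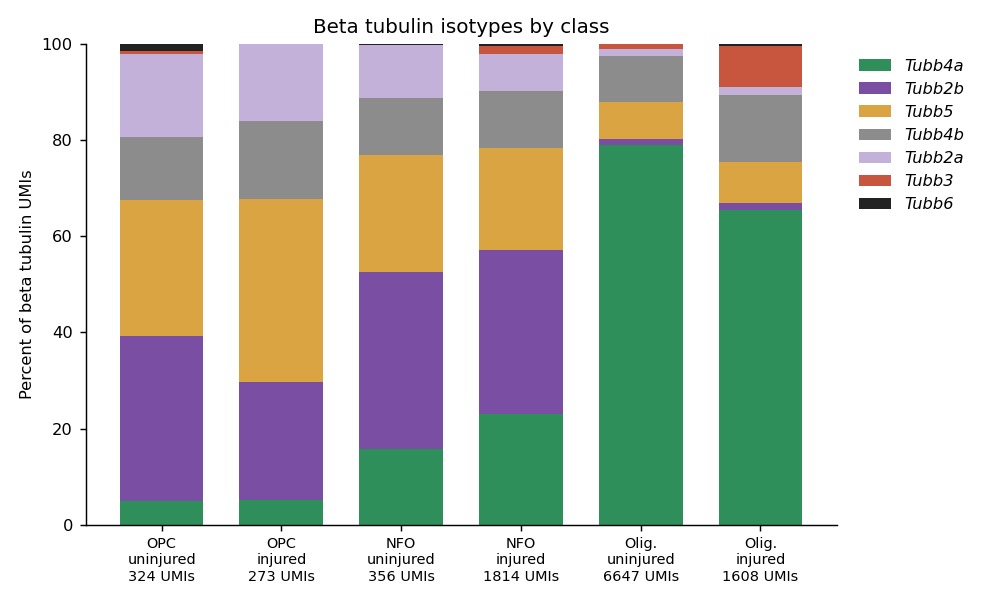
Percent of the UMIs of 7 beta tubulin genes that each gene took, as stacked bars for the 6 classes, with the beta tubulin UMIs of each class under its bar. Tubb4a takes 4.94% and 5.13% in OPCs and 79.0% and 65.5% in oligodendrocytes, where Tubb2b is at 1.25% and 1.37%, and Tubb3 takes 8.58% in injured oligodendrocytes.

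The microtubule-binding proteins Tppp and Mapt were higher in oligodendrocytes than in NFOs, and Map1b was not. Tppp (chr13:74009407-74035753), which starts and bundles microtubules in oligodendrocyte processes, was counted at 4 UMIs in uninjured and 0 UMIs in injured OPCs. It had 159 CPM (89.2 to 263) in uninjured and 179 CPM (138 to 229) in injured NFOs, and 403 CPM (384 to 423) in uninjured and 361 CPM (337 to 386) in injured oligodendrocytes. The NFO levels did not differ beyond their intervals, and the oligodendrocyte levels of both libraries lay close together. In the uninjured library oligodendrocytes had 17.3 times (6.73 to 63.4) the OPC level, and in the injured library at least 14.1 times, set against 3 UMIs in the OPC class.

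Mapt (chr11:104231390-104332090), which encodes tau, a protein that binds along microtubules, had 204 CPM (142 to 284) in uninjured and 340 CPM (243 to 463) in injured OPCs. It had 223 CPM (138 to 341) in uninjured and 375 CPM (314 to 445) in injured NFOs, and 717 CPM (691 to 743) in uninjured and 1022 CPM (981 to 1064) in injured oligodendrocytes. Injured oligodendrocytes held the highest level of Mapt, above uninjured oligodendrocytes, and OPCs and NFOs overlapped within each library. Oligodendrocytes had 3.51 times (2.52 to 5.05) the OPC level in the uninjured library and 3.003 times (2.20 to 4.21) in the injured library.

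Map1b (chr13:99421446-99516540), a microtubule-associated protein of growing processes, had 111 CPM (66.8 to 173) in uninjured and 59.5 CPM (23.9 to 123) in injured OPCs. It had 287 CPM (189 to 417) in uninjured and 1057 CPM (953 to 1170) in injured NFOs, and 290 CPM (274 to 307) in uninjured and 647 CPM (614 to 680) in injured oligodendrocytes. In the uninjured library NFOs and oligodendrocytes did not differ beyond their intervals (ratio 0.989, 0.649 to 1.45), and in the injured library NFOs were 1.63 times (1.46 to 1.83) as high.

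Both stathmins, small proteins that hold free tubulin pairs and promote shrinkage, were oligodendrocyte genes in these libraries. Stmn1 (chr4:134468320-134473843) had 350 CPM (267 to 451) in uninjured and 323 CPM (229 to 444) in injured OPCs, and 287 CPM (189 to 417) in uninjured and 111 CPM (78.8 to 152) in injured NFOs. Oligodendrocytes had 3128 CPM (3075 to 3182) in the uninjured and 1422 CPM (1373 to 1471) in the injured library. Stmn1 was 8.93 times (6.93 to 11.7) as high in oligodendrocytes as in OPCs of the uninjured library, and 12.8 times (9.36 to 18.1) as high as in NFOs of the injured library. Stmn4 (chr14:66344296-66361680), the stathmin of neural tissue, had 105 CPM (62.3 to 166) in uninjured and 85.0 CPM (40.8 to 156) in injured OPCs, and 63.7 CPM (23.4 to 139) in uninjured and 406 CPM (343 to 479) in injured NFOs. In oligodendrocytes it had 1994 CPM (1952 to 2038) in the uninjured and 1957 CPM (1900 to 2015) in the injured library, and these intervals overlapped. Its oligodendrocyte level was 18.98 times (12.0 to 32.0) that of OPCs in the uninjured library.

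Stmn1 UMIs in OPCs came mostly from barcodes with division genes. With at least 3 of 16 division genes such as Mki67 and Top2a found, 1 of 58 uninjured OPCs held 39 of the 60 Stmn1 UMIs, which is 65.0%, and 6 of 17 injured OPCs held 37 of 38, which is 97.4%. These barcodes held 7.397% and 57.4% of all UMIs of their class. In the remaining OPCs Stmn1 was at 132 CPM in the uninjured and 19.95 CPM in the injured library. Tubb5 was less concentrated, with 48.9% and 79.8% of its UMIs in the same barcodes and 296 and 419 CPM in the rest. In NFOs, 2 barcodes of each library with division genes held 51.9% of 27 Stmn1 UMIs in the uninjured and 43.6% of 39 in the injured library.

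Counted by a 2-fold difference among genes with at least 50 summed UMIs, 3 of 6 members were higher in NFOs than in OPCs of the uninjured library (Tuba1a, Tubb4a and Tubb2b) and 0 lower, where 13.4% of the 867 genes with enough UMIs were higher and 12.6% lower. Tubb4a reached 50 UMIs only through NFOs, where it was higher, and without it 2 of 5 members were higher. Between oligodendrocytes and OPCs of that library all 10 members had enough UMIs, and 6 were higher (Tubb4a, Tppp, Mapt, Stmn1, Stmn4 and Map1b) and 2 lower (Tubb2b and Tubb5), against 17.5% and 18.6% of 7806 genes. The median ratio of the members was 3.06, and that of all these genes 0.908. In the injured library 4 of 10 members were higher in NFOs than in oligodendrocytes (Tuba1a, Tubb4a, Tubb2b and Tubb5) and 4 lower (Tppp, Mapt, Stmn1 and Stmn4), where 13.5% of 6563 genes were higher and 19.4% lower. Tubb2b reached 50 UMIs only through NFOs, and without it 3 of 9 members were higher. The shares of all genes were not restricted in this way, so they stand beside the full counts only. The type labels were made by the authors from the same RNA counts, so differences between types are descriptions. With barcodes of at least 0.5% Malat1 UMIs alone, Tubb2b in NFOs of the uninjured library stood at 1.89 times the OPC level, below 2-fold, and Stmn1 at 0.358 times.

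In NFOs, the injured library was compared with the uninjured library to ask how newly formed cells of the injured nerve differ. Map1b, Stmn4 and Tuba1a were higher in the injured library and Stmn1 lower, with Tubb4a at the limit of 2-fold. Tuba1a was 2.15 times (1.97 to 2.35) and Tubb4a 2.00 times (1.51 to 2.70) as high. Map1b was 3.69 times (2.49 to 5.67) as high, from 372 and 27 UMIs, and Stmn4 6.38 times (2.86 to 17.7), from 143 and 6 UMIs. A Map1b UMI was found in 51.0% (40.8 to 61.1) of injured and 29.5% (16.8 to 45.2) of uninjured NFOs, and a Stmn4 UMI in 41.0% (31.3 to 51.3) and 11.4% (3.79 to 24.6). Stmn1 was 0.386 times (0.231 to 0.656) as high, from 39 and 27 UMIs, and without the 2 barcodes of each library that held division genes it was at 63.1 CPM in the injured and 142 CPM in the uninjured library. Mapt (1.68, 1.06 to 2.81) and Tubb2b (1.26, 1.05 to 1.54) were higher by less than 2-fold. For Tubb5 (1.18, 0.933 to 1.51) and Tppp (1.12, 0.632 to 2.12) the interval held 1. Tubb3, with 32 and 0 UMIs, was 2.85 times as high as a floor of 3 UMIs in the uninjured class, but fell short of 50 UMIs. That value takes the injured level of 90.9 CPM (62.2 to 128) as exact, and most of its UMIs came from 1 barcode.

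Thus 4 of 9 members with enough UMIs were at least 2-fold higher and 1 lower, against 13.3% and 4.01% of 1695 genes. Stmn4 reached 50 UMIs only through the injured library and Stmn1 only through the uninjured library, each the one where it was higher. Of the other 7 members 3 were higher (Tuba1a, Tubb4a and Map1b) and 0 lower, and no share of all genes was counted under that restriction. The median ratio of all 1695 genes was 1.15. Relative to that median, the log2 ratio of Tuba1a was 0.90 and that of Tubb4a 0.80, both under 2-fold, and 3 members remained past it (Stmn4, Map1b and Stmn1). Among NFOs with at least 0.5% Malat1 UMIs, where the immune markers summed to 236 CPM in the injured and 31.4 CPM in the uninjured library and the astrocyte markers to 1707 and 565 CPM, Tuba1a was 2.27 times, Mapt 2.35 times (1.29 to 4.698), Map1b 3.24 times and Stmn4 7.398 times as high, so Mapt was past 2-fold there. In those with less Malat1, Tuba1a was 1.93 times and Map1b 6.46 times as high, and Mapt 0.847 times (0.394 to 2.02). By depth, Tuba1a was 1.44 times (1.22 to 1.70) as high in NFOs under 2000 UMIs, 2.85 times (2.40 to 3.41) between 2000 and 8000 UMIs and 1.62 times (1.41 to 1.86) in the 8 injured and 2 uninjured NFOs above. Tubb2b ran at 1.23, 2.93 and 0.682 times in the same bins, so its direction turned in the deepest barcodes. Stmn1 was 0.337 times (0.167 to 0.670) as high in NFOs under 2000 UMIs and 1.77 times (0.640 to 6.07) between 2000 and 8000 UMIs, where 19 and 5 UMIs were counted.

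**Figure D4:**
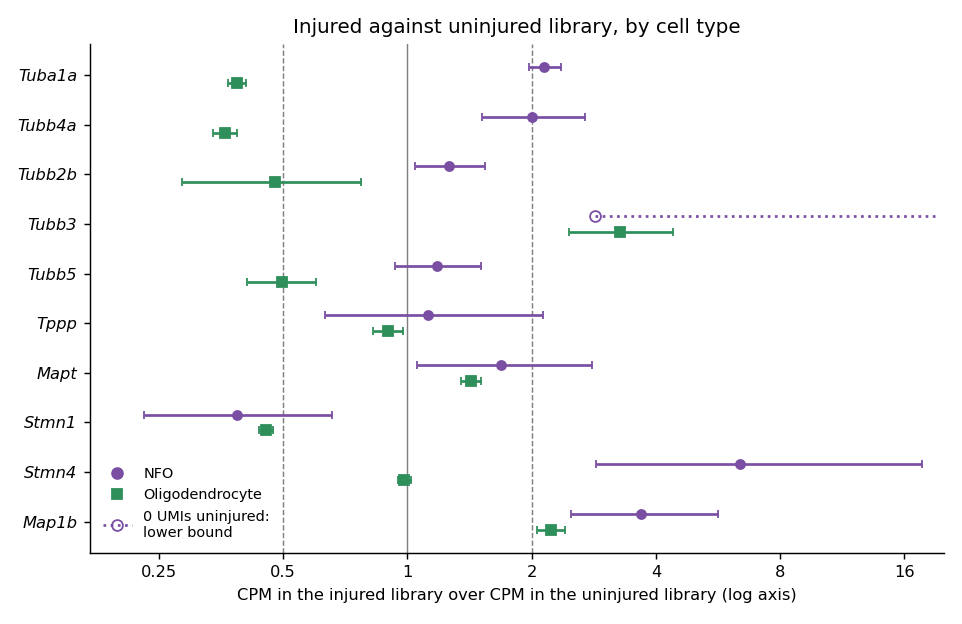
CPM in the injured library over CPM in the uninjured library (log axis) for the 10 genes in NFOs (circles) and oligodendrocytes (squares), with exact conditional 95% intervals and dashed lines at 0.5 and 2. The open circle is a lower bound for Tubb3, which had 0 UMIs in uninjured NFOs. The intervals of Tuba1a, Tubb4a and, from few oligodendrocyte UMIs, Tubb2b lie wholly on opposite sides of 1 in the 2 cell types.

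In oligodendrocytes, Tuba1a, Tubb4a, Tubb5 and Stmn1 were lower in the injured library and Map1b, Mapt and Tubb3 higher. Tuba1a was 0.386 times (0.368 to 0.405), Tubb4a 0.362 times (0.338 to 0.386), Tubb5 0.496 times (0.408 to 0.601) and Stmn1 0.454 times (0.437 to 0.472) as high as in the uninjured library. Map1b was 2.23 times (2.06 to 2.41), Tubb3 3.27 times (2.46 to 4.39) and Mapt 1.42 times (1.35 to 1.505) as high. Tppp (0.896, 0.823 to 0.974) lay close to 1, and the interval of Stmn4 held 1 (0.981, 0.946 to 1.02). Tubb2b was 0.478 times (0.284 to 0.772) as high, from 22 and 83 UMIs. In total 2 of 10 members were at least 2-fold higher and 5 lower, against 5.98% and 4.06% of 8591 genes. The median of the members' ratios was 0.696 and that of all these genes 1.03. The 5 lower members and the median include Tubb2b, whose few oligodendrocyte UMIs are not read as expression.

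The differences were then read within depth ranges, which narrow the gap in depth but do not close it. In oligodendrocytes with at least 0.5% Malat1 UMIs and at least 8000 UMIs (84 injured, 203 uninjured, with means of 23823 and 12008 UMIs per barcode), Tuba1a was 0.318 times (0.301 to 0.335), Stmn1 0.381 times (0.365 to 0.397), Map1b 2.15 times (1.97 to 2.36) and Tubb3 3.47 times (2.46 to 4.97) as high. Between 2000 and 8000 UMIs (34 and 340 barcodes) Tuba1a was 0.214 times (0.155 to 0.288), Stmn1 0.197 times (0.150 to 0.256) and Map1b 1.67 times (1.26 to 2.18) as high, and Stmn4, level in the deep barcodes (0.967, 0.928 to 1.007), was 0.410 times (0.334 to 0.4995) as high. Under 2000 UMIs (42 and 266 barcodes) the intervals of Tuba1a, Stmn1, Stmn4, Mapt and Map1b all held 1, and Tubb4a was 0.131 times (0.0268 to 0.389) as high, from 3 injured UMIs. After every barcode was drawn down to 500 UMIs, 3 of the 7 members with enough UMIs were past 2-fold (Tuba1a, Tubb4a and Map1b), against 7 of 10 over all UMIs. The direction of Tubb2b turned with depth, with a log2 ratio of 0.92 in all oligodendrocytes under 8000 UMIs and of -1.07 over all. Within the uninjured library Tuba1a was higher in deeper barcodes, with 760 CPM under 2000 UMIs and 2808 CPM at 8000 or more.

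**Figure D5:**
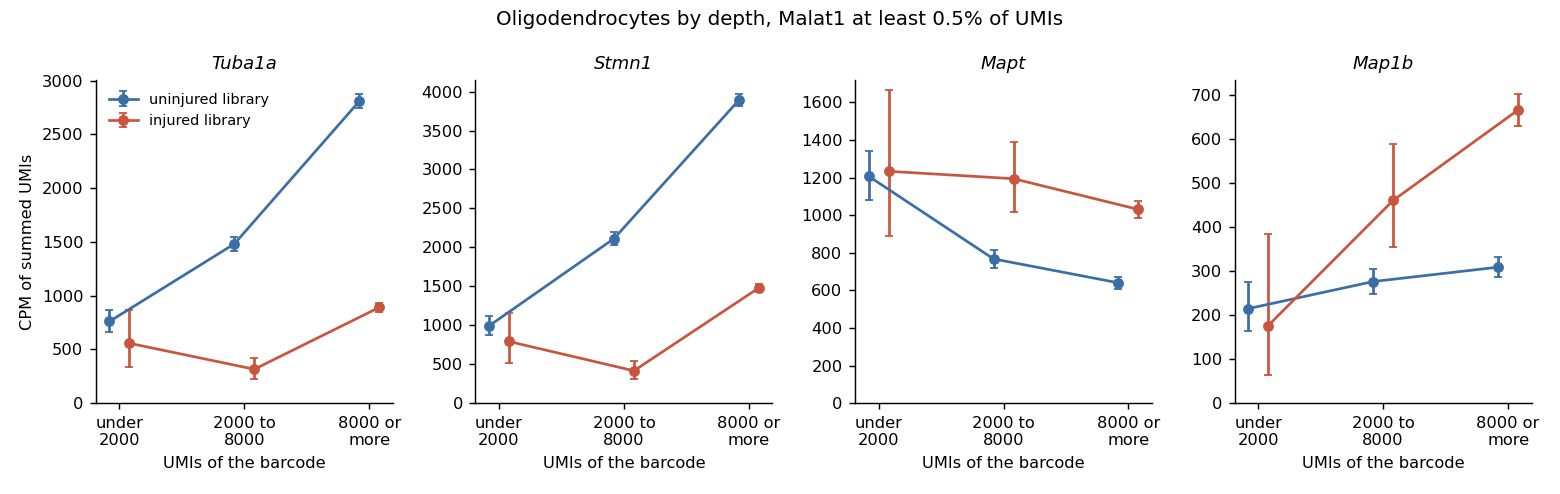
CPM of Tuba1a, Stmn1, Mapt and Map1b in oligodendrocytes with at least 0.5% Malat1 UMIs, by the total UMIs of the barcode, for the uninjured (blue) and injured (red) library with exact 95% Poisson intervals. The lines part above 2000 UMIs, with Tuba1a and Stmn1 lower and Mapt and Map1b higher in the injured library.

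Immune marker RNA moved with the same comparison, so the members were also read where it was lower. Among oligodendrocytes with at least 0.5% Malat1 UMIs, which had 171 CPM of the 12 immune markers in the injured and 26.2 CPM in the uninjured library, Tuba1a was 0.382 times, Tubb4a 0.373 times, Stmn1 0.453 times, Map1b 2.21 times and Mapt 1.45 times as high. Among those with less Malat1, with 2162 and 99.8 CPM of immune markers, Tubb4a was 0.160 times and Stmn4 0.536 times as high. The 11 injured oligodendrocytes with at least 3 division genes held 17.3% of all UMIs of their class and 16.8% of the Stmn1 UMIs. In this class 11 of the 16 division genes were detected, and Cdk1, Ccnb1, Ccnb2, Mcm6 and Rrm2 were at 0 UMIs. Whether these barcodes were dividing cells was not tested.

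Tubb3 was set beside neuron markers, since axons run through the tissue. A list of 14 neuron and retinal ganglion cell markers summed to 78.6 CPM in injured and 112 CPM in uninjured oligodendrocytes, but 178 of its 181 UMIs in injured and 420 of 466 in uninjured oligodendrocytes were of Gap43 and Uchl1, which are not limited to neurons. In injured oligodendrocytes 5 of the 14 were detected, and Rbfox3, Slc17a6, Nefl, Nefm, Nefh, Snap25, Syt1, Thy1 and Rbpms were at 0 UMIs. A Tubb3 UMI was found in 55 of 293 injured oligodendrocytes (18.8%, 14.5 to 23.7) and 64 of 857 uninjured ones (7.47%, 5.80 to 9.44). The 55 barcodes had a median of 22762 UMIs, against 902 in the other injured oligodendrocytes, and 2 of them held a UMI of any of 12 neuron genes (the list without Gap43 and Uchl1). Of the 238 injured oligodendrocytes without Tubb3, 1 held one. Among injured NFOs, 5 of 11 with a Tubb3 UMI and 2 of 89 without held one, in barcodes with medians of 19631 and 1147 UMIs. Whether neuronal RNA had a part in the Tubb3 counts was not tested. At 500 UMIs per barcode the shares came to 1.71% and 0.358%, too low to order.

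OPCs allowed little, with 17 injured barcodes. Tuba1a was 1.33 times (1.12 to 1.58), Tubb5 1.65 times (1.23 to 2.20) and Mapt 1.67 times (1.03 to 2.70) as high in the injured library. For Tubb2b (0.879, 0.639 to 1.20) and Stmn1 (0.923, 0.598 to 1.41) the interval held 1, and the other members had fewer than 50 UMIs. In the injured class 51 of the 104 Tubb5 UMIs came from 1 barcode.

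The rest of the microtubule system was read from a list of 127 other genes. In NFOs 38 of them had enough UMIs, and 9 were at least 2-fold higher and 1 lower in the injured library, against 13.3% and 4.01% of all 1695 genes. Of these 38, 31 would also have reached 50 UMIs at the level of the lower library, and 3 of the 31 were higher and 1 lower. No share of all genes was counted under that restriction. The highest ratios were those of Camsap2, a minus-end binder (4.75, 1.78 to 17.9), Mapre1, the plus-end protein EB1 (3.48, 1.77 to 7.80), Map1a (2.71, 1.36 to 6.10), the tubulin deacetylase Sirt2 (2.58, 2.20 to 3.05), and Macf1 and Map7d1 (both 2.497). Camsap2, Mapre1, Map1a and Map7d1 had 4 to 9 UMIs in the uninjured library and reached 50 UMIs only through the injured one. The lowest were those of Tuba1b (0.498, 0.357 to 0.699), Stmn3 (0.575), the tubulin folding cofactor Tbca (0.577), Clasp2 (0.662) and Fez1 (0.708), of which only Tuba1b had an interval below 1. Tuba1a and Tuba1b, near-identical in coding sequence, thus stood on opposite sides of 1 in NFOs.

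In oligodendrocytes 96 of the list had enough UMIs, and 9 were higher and 4 lower by 2-fold, against 5.98% and 4.06% of all 8591 genes, shares near those of the list. Of the 96, 92 would also have had enough UMIs at the level of the lower library, and 7 of the 92 were higher and 4 lower. The shares of all genes were not restricted in this way. The highest ratios of the list were those of the tubulin polyglutamylase subunit Ttll1 (3.33, 2.02 to 5.59), Dync1li1 (2.45), Map6 (2.41, 1.97 to 2.96), Tacc3 (2.36) and the kinesin Kif5c (2.34). Ttll1 and Tacc3 each had 26 UMIs in the uninjured library and reached the minimum only through the injured one. The lowest were the kinesin Kif5a (0.381, 0.319 to 0.451), Tuba1b (0.458, 0.390 to 0.537), Fign (0.477), Dclk2 (0.496) and the folding cofactor Tbcd (0.510). The median ratio of the list was 1.25 in NFOs, where that of all genes was 1.15, and 1.06 in oligodendrocytes, where that of all genes was 1.03. Map1a, which shares its family with Map1b, was also higher in the injured library in oligodendrocytes (2.27, 2.14 to 2.42).

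Genes with the pattern most like that of a member were sought by Pearson correlation of log2(CPM + 10) over the 6 classes, among 9153 genes with at least 50 UMIs, as a description of classes that come from 2 libraries. For Tuba1a these were Diablo (0.99), Ndufa6 (0.98) and Minos1 (0.98), with Diablo running only from 66.5 to 99.5 CPM. For Tubb4a they were Dpysl2 (0.99), Tm7sf3 (0.98) and Dbndd2 (0.97), and Dpysl2 (CRMP2, a tubulin-binding protein) ran from 216 CPM in uninjured OPCs to 975 CPM in injured NFOs and 751 CPM in uninjured oligodendrocytes. For Tppp they were Arhgef2, which encodes a microtubule-bound exchange factor (0.998), the transcription factor St18 (0.997) and Tmem159 (0.994), and for Stmn1 Masp1, Gstm7 and Mtus1 (0.98 to 0.99). Within the group, the levels of Tubb2b and Tubb5 had a correlation of 0.98.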

How the data were processed

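The libraries were made from 6000 loaded cells each with the Chromium v2 kit. Per the labels and the paper's methods, the authors aligned reads to mm10 and counted UMIs with Cell Ranger 1.3 (bcl2fastq 2.17.1.14), left out cells with over 20% mitochondrial genes, under 200 genes or over 150000 UMIs, drew equal numbers of cells per library and typed them. The deposited values are NE from Seurat 4.0.3, in which the authors scaled the UMIs of each barcode to a sum of 10000, added 1 and took the natural log. A further table that joins the libraries was not used, since its values were those of the single tables.

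UMIs were recovered from NE and were whole within 0.001 in 100% of barcodes (4414834 UMIs uninjured, 2771797 injured; medians of 2782 and 1304.5 per barcode). CPM of summed UMIs, shares and ratios were computed with Python 3.11.15, numpy 2.4.6 and scipy 1.17.1, and the steps were tested on simulated data. Comparisons used genes with at least 50 UMIs in both classes together, and a class at 0 was taken at 3 UMIs. A gene was said to reach the minimum only through its higher class where both classes at the lower CPM would have held under 50 UMIs. Shares of all genes were not restricted in this way. No test was run, because cells of 1 library are not replicates. Tails and identities came from GENCODE vM21 with Biopython 1.88. Doublets were kept, and Scrublet (scanpy 1.11.5) marked 12 uninjured and 3 injured barcodes.

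The members and gene lists were chosen with earlier results of these data known. Named besides the members are the 5 highest and 5 lowest ratios of the list of other microtubule genes in each type, a tied gene, Map1a in oligodendrocytes (chosen after its value was seen), markers, and the 3 genes most like Tuba1a, Tubb4a, Tppp and Stmn1. Alternatives were barcodes by Malat1 share, under 8000 UMIs, a stricter filter (at least 500 genes, at most 10% mitochondrial UMIs), Scrublet, thinning to 500 UMIs, leaving out each gene's top barcode, mean CPM over barcodes, median-of-ratios scaling, and minimums of 200 UMIs or none.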

Additional observations from a re-analysis of the deposited data

Results flagged for a closer look

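The members whose difference between the libraries ran in opposite directions in the 2 cell types, each beyond its counting interval, were Tuba1a, Tubb4a and Tubb2b. Tuba1a was 2.15 times as high in injured as in uninjured NFOs and 0.386 times as high in oligodendrocytes. Tubb4a was 2.00 times as high in NFOs and 0.362 times in oligodendrocytes. Tubb2b was 1.26 times as high in NFOs and 0.478 times in oligodendrocytes, from 22 and 83 UMIs in the latter, which are not read as expression. The Tubb2b ratio turned above 1 in oligodendrocytes under 4 alternatives (log2 0.13, 0.92, 1.10 and 0.76) and was 0.682 in NFOs of at least 8000 UMIs, so its directions are not stable. With 1 library per condition the difference between the cell types was not tested. Among barcodes with at least 0.5% Malat1 UMIs the ratios were 2.27 and 0.382 for Tuba1a, 2.13 and 0.373 for Tubb4a and 1.16 and 0.458 for Tubb2b, whose NFO interval then held 1.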

How the results depend on the processing

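Of the 171 ratios of members between the libraries computed under the alternatives, 160 kept their direction. Their size was less stable. Set against the counting interval of the reported ratio, 123 were rated the same, 42 moved and 6 reversed. Not every ratio that lost its direction was rated as reversed. The log2 ratio of Tuba1a in NFOs, 1.10 as reported, moved to 0.64 with mean CPM and to 1.26 without its top barcode. The number of members past 2-fold between the libraries in NFOs, 5 as reported, was 2 in barcodes with under 0.5% Malat1 UMIs, 1 after thinning to 500 UMIs, and 3 each in barcodes under 8000 UMIs, with the stricter filter, with mean CPM over barcodes, with median-of-ratios scaling and with a minimum of 200 UMIs. In oligodendrocytes, 7 as reported, it was 4 in barcodes with under 0.5% Malat1 UMIs and 3 each in barcodes under 8000 UMIs, after thinning and with mean CPM. Between NFOs and OPCs, 3 as reported, it was 1 after thinning, when 1 member had enough UMIs, and 5 with no minimum. Thinning, depth and Malat1 subsets leave fewer UMIs, whereas mean CPM over barcodes uses all of them. The cause of these changes was not tested for any setting. The log2 ratio of Mapt turned to -0.24 in NFOs with under 0.5% Malat1 UMIs and to -0.052 in oligodendrocytes with mean CPM. That of Tubb2b in oligodendrocytes turned to 0.13 with under 0.5% Malat1 UMIs, 0.92 under 8000 UMIs, 1.10 after thinning and 0.76 with mean CPM. The number past 2-fold stayed between 6 and 9 for oligodendrocytes against OPCs and 7 and 8 for NFOs against oligodendrocytes of the injured library. The median ratio of all genes between NFOs and OPCs was 1.18. Barcodes with under 0.5% Malat1 UMIs could not be compared with OPCs of the uninjured library, which has 0 of them, and so that setting was not run there. No replicate could be left out. No paired analysis was possible because each condition has 1 library.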
